A study of Canis lupus familiaris with 22 samples.

Results

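Monocytes and the macrophages that arise from them were followed through 9 genes that mark them in blood, *CD14*, *CD163*, *CSF1R*, *LYZ*, *FCGR1A*, *MARCO*, *VCAN*, *CD68* and *CD86*. The members were the probes for transcripts whose gene name in the scanner files equalled one of these symbols. This gave 14 probes, printed in 18 spots, out of the 43603 different probes in 43803 spots on each array, which carry 34382 different gene or transcript names. All 14 passed the filter on dim probes, which kept 38286 probes in all, a probe being kept when its signal in the channel of the dog was well above background on at least 7 of the 22 arrays.

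Monocytes leave the bone marrow, circulate in the blood and enter tissues, where they become macrophages that take up microbes, dying cells and debris. They sense bacterial products, display fragments of what they have ingested to T cells and release cytokines, and in atopic dermatitis such cells are found in the inflamed skin as well as in blood. The genes studied here cover the sensing of microbes (*CD14*), the growth factor receptor on which the lineage depends (*CSF1R*), receptors for uptake (*CD163*, *MARCO*, *FCGR1A*), products that these cells secrete (*LYZ*, *VCAN*), a lysosomal membrane protein (*CD68*) and a costimulatory ligand (*CD86*).

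Gene expression was measured in 8 healthy dogs (ctrl), in 7 dogs with canine atopic dermatitis (cAD patients) before allergen-specific immunotherapy (ASIT), called 0, and in the same 7 dogs after 6 months of ASIT. The cAD patients were privately owned dogs, and no genetic change or other agent is named in the labels of any group. The material was venous blood, labelled as whole blood, whereas the study's methods speak of RNA from nuclear cells of peripheral blood. RNA of the dog was labelled with Cy5 and hybridized together with a Cy3-labelled common reference, a pool of RNA from other healthy dogs, so each value below is a log2 ratio of a dog to that reference and a value of 0 means a level equal to the reference. In such mixed samples, fewer monocytes and less RNA per monocyte cannot be told apart. Levels of different genes were not compared, and where a gene had several probes the one with the brightest signal stood for it in correlations and figures.

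The ctrl arrays lay on slides 1 and 2 and were scanned on the first day, without any array of a cAD patient, so each comparison with ctrl cannot be told apart from slide or scan. The arrays of dogs 4 to 7 at 6 months lay on slide 6, scanned on day 4 without any array at 0. In these dogs the change from 0 to 6 months cannot be told apart from slide or scan. In ctrl, 87.8% of probes (median) gave a Cy5 signal well above background, against 62.5% at 0 and 61.6% at 6 months. All 9 members were well above background on all 22 arrays with their brightest probe, no member spot was saturated, and 28 of the 32 markers of 7 other blood cell types on the array were well above background on all arrays too. These were markers of neutrophils, T cells, B cells, cytotoxic lymphocytes, eosinophils, erythroid cells and platelets, and 0 of the 32 passed the limma test in any comparison. The only list with a median difference from ctrl above 0.5 was the erythroid one, with 0.59 at 0 and 0.95 at 6 months on the log2 scale. The platelet list had a median of -0.53 at 0.

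No member passed the test of a difference between the groups. In limma, with p adjusted by Benjamini-Hochberg across the tested probes, 0 of the 14 probes passed an adjusted p of 0.05 for 0 vs. ctrl, where 0.0418% of all tested probes were called. For 6 months vs. ctrl and for 6 months vs. 0, 0 of the 14 were called, and the share over all probes was 0% in both. The 3-group F-test called 0 of the 14 as well, again with 0% of all probes, and 0 of the 14 had an unadjusted p under 0.05 there, against 9.7% of all probes. At an unadjusted p under 0.05, limma gave 0 of 14 for 0 vs. ctrl against 11.7% of all probes, 1 of 14 for 6 months vs. ctrl against 7.2%, and 0 of 14 for 6 months vs. 0 against 5.96%. The single probe was that of *CD68*. The smallest adjusted p of any member was 0.636, 0.681 and 0.934 in the same order.

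For 0 vs. ctrl the 14 probes had a median difference of -0.13 on the log2 scale, with 11 below 0, beside a median of -0.02 and a share of 52.4% below 0 over all tested probes. For 6 months vs. ctrl the median was -0.08 with 10 of 14 below 0, beside -0.04 and 56.4%. Between 0 and 6 months it was 0.15 with 4 of 14 below 0, beside 0.01 and 48.6%. In none of the 3 comparisons did the arrays of the groups separate for any of the 14 probes, which was the case for 0.219%, 0.11% and 0.0183% of all probes.

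**Figure D1:**
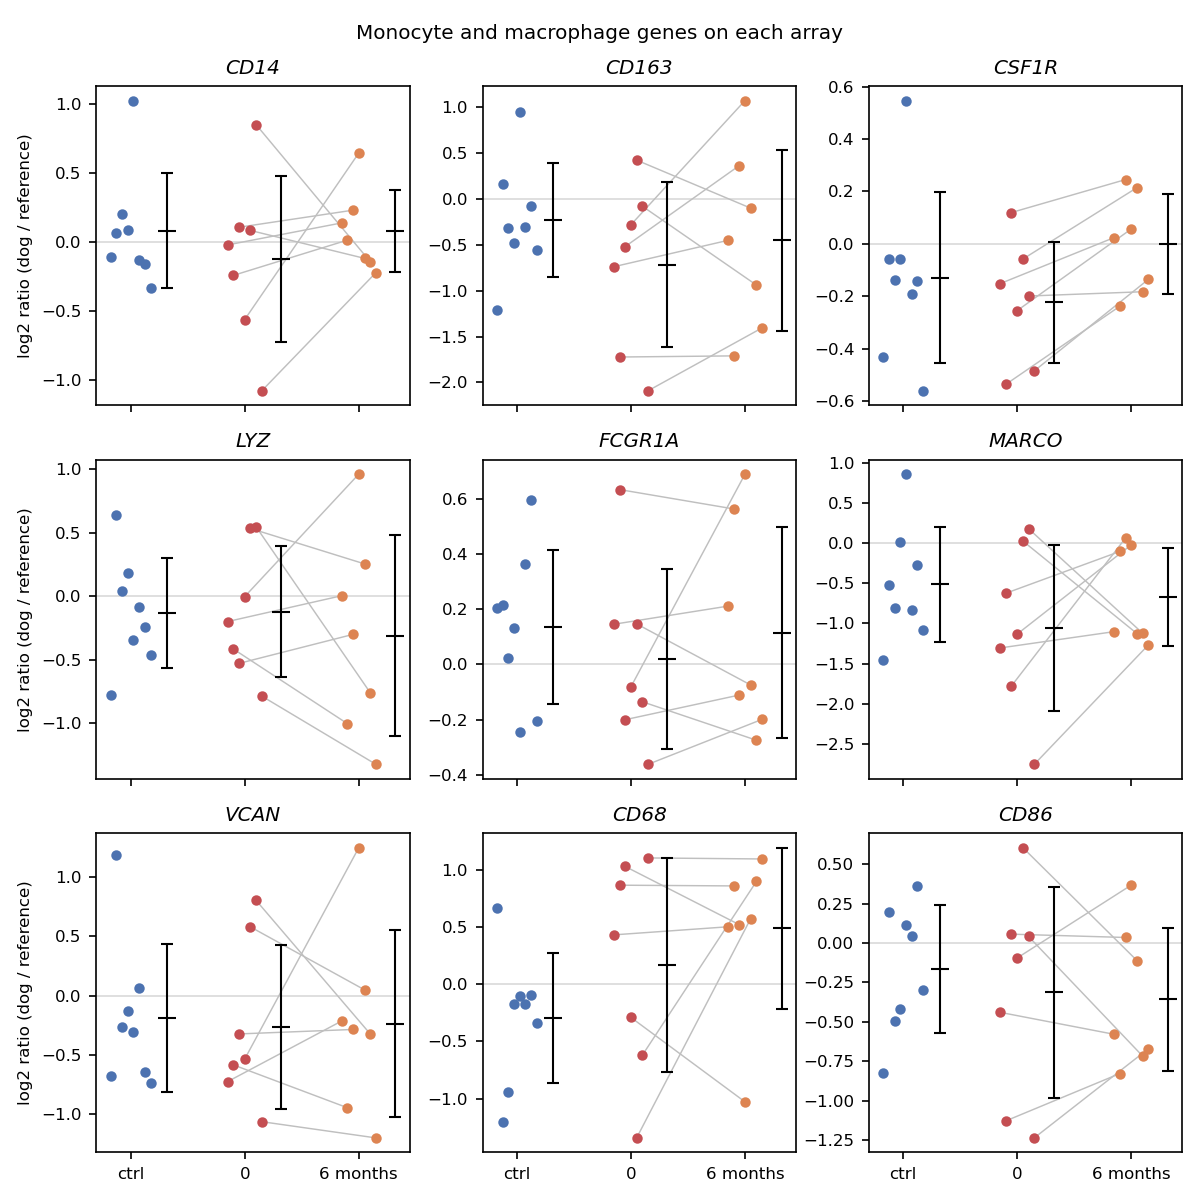
Log2 ratio of dog to reference on each of the 22 arrays for the brightest probe of each member, in ctrl (n = 8), at 0 (n = 7) and at 6 months (n = 7), with grey lines joining the arrays of the same dog and black bars giving the mean and SD. The vertical scale differs between the panels. The groups overlap for all 9 genes, and the lines of *CSF1R* all rise.

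*CD14*, the co-receptor that hands lipopolysaccharide to Toll-like receptor 4, was read by 1 probe at chr2:35791859-35791918 of canFam3.1, the build named in the files for all positions given here. No annotation of exons of that build was used here. Its log2 ratio ran from -0.33 over a median of -0.02 to 1.03 in ctrl, from -1.08 over -0.02 to 0.85 at 0, and from -0.22 over 0.01 to 0.65 at 6 months. The highest ctrl value was that of control dog 5, with the next at 0.20, and the lowest value at 0 was that of dog 7. The groups overlapped, with the narrowest spread at 6 months (SD 0.30, n = 7). The difference was -0.21 (SE 0.23) for 0 vs. ctrl, -0.004 (SE 0.23) for 6 months vs. ctrl and 0.20 (SE 0.24) for 6 months vs. 0, with adjusted p of 0.788, 0.998 and 0.934 in limma. Without the array of dog 7 at 0 the first of these was -0.05 and the last 0.04, and without that of dog 6 at 0 they were -0.37 and 0.36.

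*CSF1R*, the receptor for colony stimulating factor 1 and interleukin-34, was read by 3 probes on chromosome 4. The brightest, at chr4:59010620-59010679, ran from -0.56 over a median of -0.14 to 0.55 in ctrl, from -0.54 over -0.20 to 0.12 at 0 and from -0.24 over 0.02 to 0.25 at 6 months. Its values were higher at 6 months than at 0 in all 7 dogs, with changes from 0.02 in dog 6 to 0.35 in dog 7 and a mean of 0.22 (SD 0.12). In dogs 4 to 7 these changes cannot be told apart from slide or scan. The 2-sided exact sign-flip test within dogs gave p = 0.0156 for this probe, the smallest p that 7 dogs allow. It was the only 1 of the 14 probes that differed in the same direction in all 7 dogs, which 1.75% of all tested probes did, 0.883% upwards and 0.87% downwards. The limma test with the dog as a block gave it an adjusted p of 0.783, and the one without a block 0.934.

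The other *CSF1R* probes did not have the same direction in all dogs. Probe 2, whose 60 bases span 186 bases of the genome, was higher at 6 months in 5 of 7 dogs, with a mean change of 0.25 and a larger SD of 0.63 (exact p = 0.359). Probe 3, which spans 727 bases, was higher in 2 of 7, with a mean change of -0.23 and an SD of 0.83 (exact p = 0.484). With normexp background correction, and with the Cy5 channel alone, the brightest probe was higher at 6 months in 6 of 7 dogs, with a mean change of 0.16 (SD 0.20) and 0.30 (SD 0.26). Across the 22 arrays the 3 probes correlated by r = 0.44 (probes 1 and 2), 0.69 (probes 1 and 3) and 0.59 (probes 2 and 3) after the mean of each group was subtracted. The differences from ctrl of the brightest probe were -0.10 (SE 0.15) at 0 and 0.13 (SE 0.15) at 6 months. The latter was 0.06 without control dog 8, 0.22 without control dog 5, 0.04 with normexp and 0.41 with the Cy5 channel alone (adjusted p = 0.0787 in limma).

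*CD163*, the scavenger receptor that clears complexes of haemoglobin and haptoglobin, had the largest differences among the uptake receptors together with *MARCO*. Its brighter probe, at chr27:37696620-37696679, was printed in 5 spots, whose SD within an array had a median of 0.0782 and reached 0.485. It ran from -1.21 over a median of -0.31 to 0.95 in ctrl, from -2.09 over -0.52 to 0.42 at 0, and from -1.71 over -0.45 to 1.07 at 6 months. The groups overlapped widely. The difference was -0.49 (SE 0.40, adjusted p = 0.696 in limma) for 0 vs. ctrl and -0.22 (SE 0.40) for 6 months vs. ctrl. The latter was -0.48 without dog 4 and -0.01 without dog 2 at 6 months. The former was -0.26 without dog 7 at 0, and -0.09 with normexp background correction. The second probe of *CD163*, at chr27:37694291-37694348 and well above background on 21 arrays, followed the first with r = 0.92 and had differences of -0.37 (SE 0.38) and -0.31 (SE 0.38).

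*MARCO*, a scavenger receptor that binds bacteria and particles, lay below the reference in most dogs. The probe at chr19:30996366-30996425 ran from -1.46 over a median of -0.67 to 0.86 in ctrl, from -2.76 over -1.13 to 0.18 at 0 and from -1.27 over -1.10 to 0.07 at 6 months. Control dog 5 was again the highest of its group, and dog 7 was the lowest at both times. The mean at 0 was 0.686 times that of ctrl, a difference of -0.54 (SE 0.39, adjusted p = 0.636 in limma, exact permutation p = 0.258). Without dog 7 this difference was -0.26, and with normexp background correction it was -0.24. The difference was -0.16 (SE 0.39) for 6 months vs. ctrl, and for 6 months vs. 0 it was 0.39 (SE 0.40), or 0.10 without the array of dog 7 at 0 and 0.59 without that of dog 6 at 0. The change within dogs ran from -1.30 to 1.84, with 5 of 7 dogs higher at 6 months (exact p = 0.406). In dogs 1 to 3, whose arrays of both times shared a slide, the mean change was 0.86, with 0.20 in dog 1, 0.52 in dog 2 and 1.84 in dog 3, so that dog 3 carried most of it.

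*FCGR1A*, the high-affinity receptor for the Fc part of IgG, had the narrowest range over the 22 arrays among the brightest probes of the members. At chr17:59101790-59101849 it ran from -0.25 over a median of 0.17 to 0.60 in ctrl, from -0.36 over -0.08 to 0.63 at 0 and from -0.27 over -0.07 to 0.69 at 6 months. Its 3 differences were -0.11 (SE 0.18), -0.02 (SE 0.18) and 0.09 (SE 0.19), with adjusted p from 0.855 to 0.986 in limma. The first was -0.22 without dog 2 at 0 and -0.05 without control dog 7. Dog 2 held the highest value at 0 and the second highest at 6 months.

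*LYZ*, lysozyme, an enzyme that cleaves the cell wall of bacteria, had medians below the reference in each group. Its brighter probe, at chr10:11350767-11350826, ran from -0.78 over -0.16 to 0.64 in ctrl, from -0.79 over -0.20 to 0.55 at 0 and from -1.32 over -0.30 to 0.96 at 6 months. The difference was 0.01 (SE 0.29) for 0 vs. ctrl, or 0.36 with the Cy5 channel alone (adjusted p = 0.241 in limma). It was -0.18 (SE 0.29) for 6 months vs. ctrl and -0.19 (SE 0.30) for 6 months vs. 0. The last pair became -0.39 and -0.40 without dog 4 at 6 months, -0.01 and -0.02 without dog 7 at 6 months, and -0.34 and -0.41 with normexp background correction. The second probe, at chr10:11351430-11351489, followed it with r = 0.86 and gave 0.09 (SE 0.31), -0.11 (SE 0.31) and -0.19 (SE 0.32). *VCAN*, versican, a matrix proteoglycan that circulating monocytes express, was read by probes at chr3:24129214-24129273 and chr3:24128058-24128117, which followed each other with r = 0.86. The first ran from -0.73 over -0.28 to 1.18 in ctrl, from -1.06 over -0.53 to 0.80 at 0 and from -1.20 over -0.29 to 1.25 at 6 months. Its differences lay within 0.08 of 0, with SE of 0.34 to 0.35, and those of the second were -0.16, 0.08 and 0.24 with like errors.

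*CD86*, the ligand that gives T cells a costimulatory signal through CD28, was read at chr33:25317933-25317992. It ran from -0.82 over a median of -0.13 to 0.36 in ctrl, from -1.24 over -0.10 to 0.60 at 0 and from -0.83 over -0.58 to 0.37 at 6 months. The median at 6 months was thus the lowest, while the groups still overlapped. The differences were -0.15 (SE 0.26) for 0 vs. ctrl, -0.19 (SE 0.26) for 6 months vs. ctrl and -0.04 (SE 0.27) for 6 months vs. 0. The second of these was -0.31 without dog 4 and -0.11 without dog 2 at 6 months, -0.03 with normexp and -0.36 with the Cy5 channel alone.

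**Figure D2:**
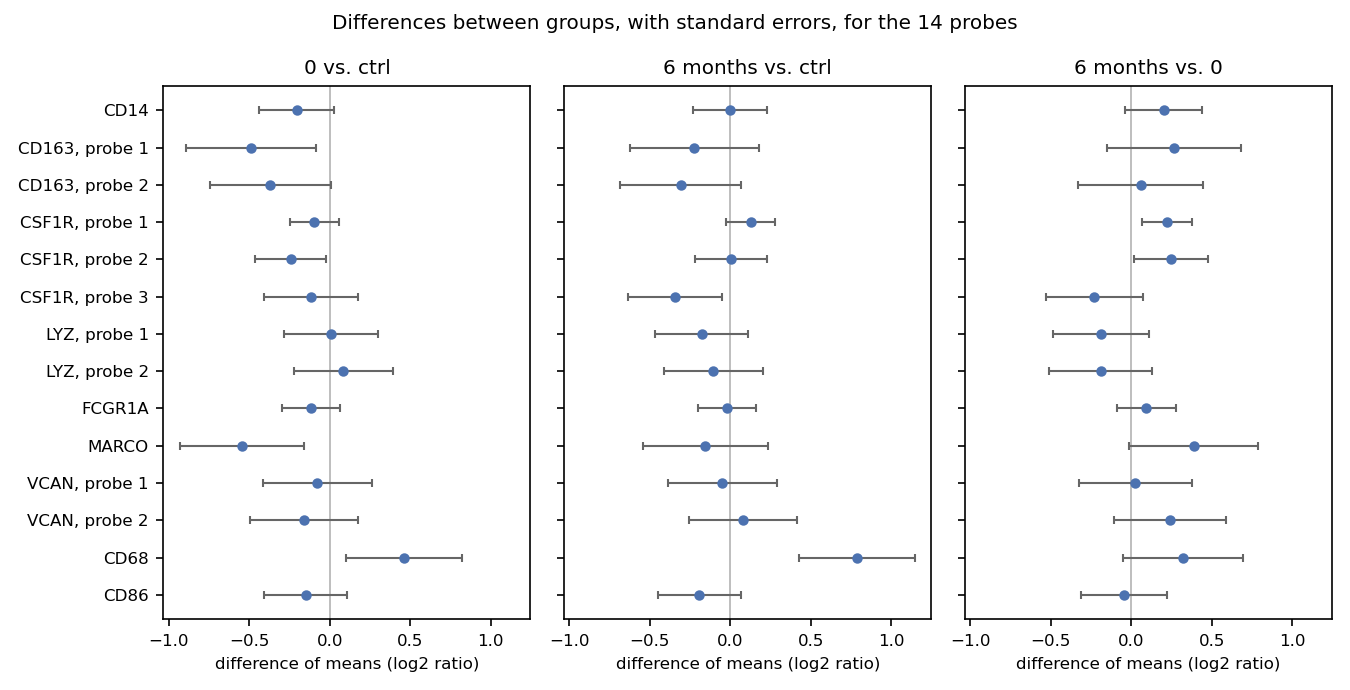
Difference of group means in log2 ratio (points) with its standard error from limma (bars) for each of the 14 probes in 0 vs. ctrl, 6 months vs. ctrl and 6 months vs. 0. None of the 14 probes passed the adjusted test in any panel, and *CD68* lies farthest from 0, at 0.78 for 6 months vs. ctrl.

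The probe of *CD68*, a glycoprotein of lysosomes and a common label of macrophages in tissue sections, had the largest difference and was the only one above ctrl by more than 0.2 at either time. Its log2 ratio ran from -1.20 over a median of -0.17 to 0.67 in ctrl, from -1.34 over 0.43 to 1.1 at 0 and from -1.03 over 0.57 to 1.1 at 6 months. At 6 months, 6 of the 7 dogs lay between 0.50 and 1.1, while dog 4 lay at -1.03, and the groups overlapped. The mean at 6 months was 1.72 times that of ctrl, a difference of 0.78 (SE 0.36) with an unadjusted p of 0.0401 and an adjusted p of 0.681 in limma, and an exact permutation p of 0.0368 among the 42 exact tests made on the 14 probes. For 0 vs. ctrl the difference was 0.46 (SE 0.36, exact permutation p = 0.26), which was 0.31 without dog 7 at 0, 0.71 without dog 5 at 0 and 0.11 with the Cy5 channel alone. Within dogs the value at 6 months minus that at 0 was 1.92 in dog 5, 1.52 in dog 6, -0.74 in dog 4 and -0.51 in dog 3, and within 0.1 of 0 in the others. In dogs 4 to 7 these changes cannot be told apart from slide or scan.

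The single *CD68* probe, at chr5:32503033-32503092, did not vary with the other members but against them. It correlated negatively with all 8, from r = -0.23 with *FCGR1A* to r = -0.85 with *LYZ*, after the mean of each group was subtracted (n = 22 arrays, of which the 14 of cAD patients come from 7 dogs). With *LYZ* the Spearman coefficient was -0.86, and r was -0.82 without the 2 most distant arrays, -0.83 in ctrl, -0.96 at 0 and -0.88 at 6 months. The sign was negative for all 8 members under each of the 4 other scalings tried as well, with a median between -0.54 and -0.62. A neighbouring probe lies 189 bases downstream in the same orientation, at chr5:32503282-32503341. In the files it carries no symbol, only the name of an assembled transcript that is also listed for the *CD68* probe, and it was looked up after the *CD68* values had been seen. It was well above background on all 22 arrays, correlated with the *CD68* probe by only r = -0.21, and with *CD14*, *CD163* and *LYZ* by 0.47, 0.51 and 0.23. Its differences were -0.19 (SE 0.17) for 0 vs. ctrl and 0.01 (SE 0.17) for 6 months vs. ctrl, beside 0.46 and 0.78 for the *CD68* probe, none of which passed the adjusted test.

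Across the array, the *CD68* probe had many close followers and the other members had few. Of the other 38285 tested probes, 595 (1.55%) had r of at least 0.95 with it, and *CD86* had 1 such probe while the remaining 7 members had 0. Among the named genes most like it were *PAQR4* (r = 0.996) and *MBD6* (r = 0.996), which encode a membrane protein of the progestin and adipoQ receptor family and a methyl-CpG-binding domain protein. Of the 331 probes with r of -0.9 or less with *LYZ*, 152 were among these 595. The probe sequences are printed because the followers share letters more often than other probes do. They are given 5′ to 3′ as in the files, with CCTG in capitals, for *CD68* (plus strand), *PAQR4* (minus strand of canFam3.1, chr6:38211326-38211385), *MBD6* (plus strand, chr10:1620404-1620463), the neighbouring probe, *LYZ*, the member with the most negative r with *CD68*, and *CD14*, which does not hold these letters.
CD68: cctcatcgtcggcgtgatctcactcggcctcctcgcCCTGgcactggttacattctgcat
PAQR4: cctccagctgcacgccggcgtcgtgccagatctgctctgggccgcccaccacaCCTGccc
MBD6: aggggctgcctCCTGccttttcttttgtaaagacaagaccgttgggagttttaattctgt
Neighbouring probe: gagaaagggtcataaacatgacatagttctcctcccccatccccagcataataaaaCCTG
LYZ: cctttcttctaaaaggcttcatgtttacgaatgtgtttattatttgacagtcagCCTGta
CD14: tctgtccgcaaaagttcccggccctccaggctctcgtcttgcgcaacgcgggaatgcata

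Among the 595 probes, 461 (77.5%) held CCTG, against 29.5% of all tested probes. Of all 1024 words of 5 letters, the 3 with the largest excess were CCCTG (47.2% against 8.11%), CCTGC (38% against 7.36%) and CCTGG (35.1% against 9.87%), all of which contain CCTG. The excess was on the strand of the probe, since the complementary CAGG was held by 26.6% of the 595 and by 25.1% of all. The 595 were also richer in G and C, with a median of 55% against 45%, and among probes with at least 55% G and C the shares with CCTG were 82.7% and 49.1%. Of the 14 member probes 8 held it, from *CD163*, *CD68*, *CSF1R*, *LYZ* and *VCAN*, for the last of these not in its brightest probe. CCTG was picked after the sequences had been seen, and its part in the pattern was not tested. Whether the *CD68* probe reports the *CD68* transcript alone was not tested either, so the differences of 0.46 and 0.78 are those of the probe.

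The *CD68* ratio also moved with genes of red cell precursors. It correlated with the mean log2 ratio of the erythroid list by r = 0.87 (rho 0.83) over the 22 arrays, with 0.82 in ctrl, 0.99 at 0 and 0.79 at 6 months. Of the 6 erythroid genes, 4 were on the array and all 4 correlated with *CD68*, from 0.77 for *AHSP*, the chaperone of alpha globin, to 0.86 for *ALAS2*, the first enzyme of haem synthesis in red cells. Over all tested probes, 15.6% had r of at least 0.5 with the *CD68* probe and 3.16% had r of at least 0.9. *HBB* and *HBM* had no probe under these names. The level of the list ran from -1.74 over a median of -0.44 to 1.31 in ctrl, from -1.48 over 0.65 to 1.34 at 0 and from -0.67 over 0.90 to 1.51 at 6 months. The other 8 members all had a negative r with it, from -0.84 for *LYZ*, -0.77 for *CD163* and *VCAN*, -0.69 for *CD86*, -0.58 for *MARCO*, -0.53 for *CSF1R* and -0.48 for *CD14* to -0.05 for *FCGR1A*. The part of the erythroid signal in the values of *CD68* was not tested.

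**Figure D3:**
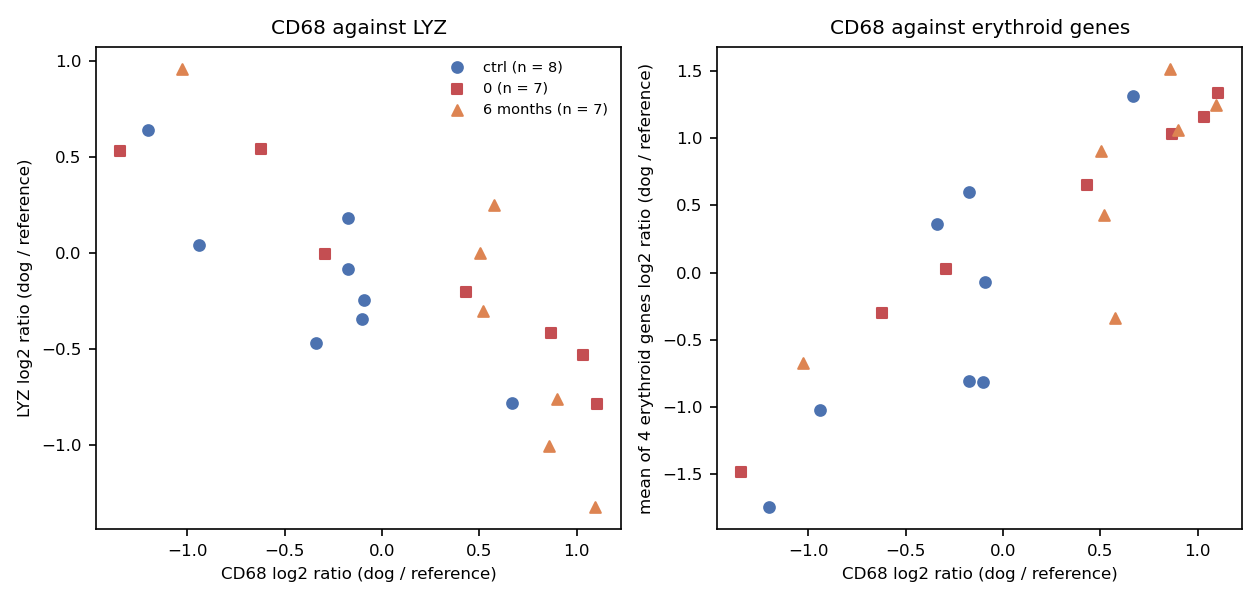
Log2 ratio of *CD68* on each of the 22 arrays (horizontal) against that of *LYZ* (left) and against the mean of 4 erythroid genes (right), with a symbol for each group. The points fall from upper left to lower right with *LYZ* and rise with the erythroid genes, within each of the groups.

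The other members varied together from array to array. With group means subtracted, the 36 pairs of members had a median r of 0.47 over the 22 arrays, and the 28 pairs without *CD68* one of 0.54. The closest were *LYZ* with *VCAN* (r = 0.91, rho 0.89, 0.86 without the 2 most distant arrays) and *CD163* with *CD86* (r = 0.90, rho 0.90 and 0.87 in the same order). Of all tested probes, 0.0104% correlated at least as strongly with *LYZ* as *VCAN* did, and 0.0287% at least as strongly with *CD163* as *CD86* did. *CD14* came closest to *MARCO* (r = 0.77). An r of at least 0.5 was reached with *CD163* by 6 of the other 8 members, against 13.9% of all probes, with *CD86* by 6 against 10.8%, and with *CD14* by 5 against 5.82%. With *CSF1R* and *MARCO* it was reached by 3 each, against 3.75% and 5.33%, with *LYZ* by 3 against 17.5% and with *VCAN* by 4 against 13.3%. With *CD68* it was reached by 0 of the 8, against 15.6%. Some of these pairs fell below 0.5 without slide 5, which held arrays of dogs 5 to 7 at 0. They were *CD14* with *VCAN* (0.39) and *CD86* (0.35), and *MARCO* with *CD163* (0.44) and *CD86* (0.28). The other pairs that had reached 0.5 stayed above it.

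Over the 22 arrays, the r of *FCGR1A* with the other members lay between -0.23 and 0.31, and none reached 0.5, against 6.8% of all probes. In the changes within the 7 dogs this was not so, as its r was positive with all 7 members other than *CD68*, from 0.38 with *CSF1R* to 0.92 with *VCAN*, and -0.74 with *CD68*. Without *FCGR1A* and *CD68*, all 21 pairs of the 7 remaining members were positive, from 0.37 to 0.91. With slide 5 left out these 21 ran from 0.22 for *MARCO* with *VCAN* to 0.88 for *LYZ* with *VCAN*. *FCGR1A* had r = 0.49 with the mean of the neutrophil list over the 22 arrays. This r was 0.85 in ctrl, 0.34 before ASIT and 0.48 after ASIT. The other members had r from -0.27 (*CD163*) to 0.22 (*CD14*) with that list over the 22 arrays. With the T cell and B cell lists *FCGR1A* had r = -0.59 and -0.57. Which blood cells gave the *FCGR1A* signal was not tested. The arrays share the reference RNA and a dye orientation, and slides hold several arrays each, so these coefficients describe the arrays and carry no p.

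**Figure D4:**
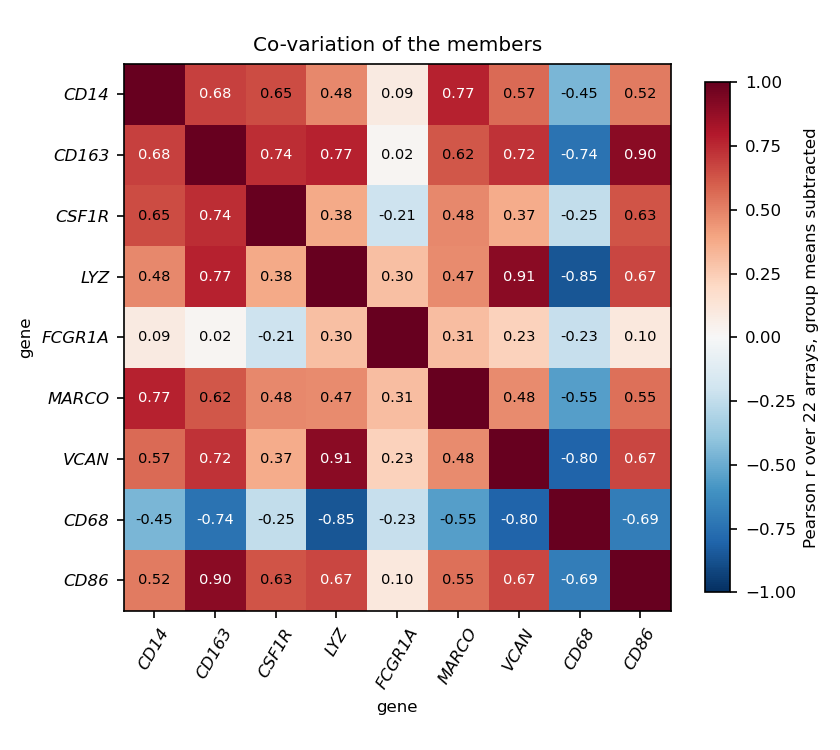
Pearson r between the brightest probes of each pair of members over the 22 arrays, after the mean of each group was subtracted, with red for positive and blue for negative values. The row of *CD68* is negative throughout, and that of *FCGR1A* lies near 0.

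The co-variation had a lower median in ctrl. The median over the 36 pairs was 0.23 in the 8 ctrl arrays, 0.51 at 0 and 0.48 at 6 months, and 0.64 for the change from 0 to 6 months within the 7 dogs. In ctrl the pair of *CD14* and *CSF1R* reached 0.93 and that of *LYZ* and *VCAN* 0.87, while *CD14* and *LYZ* had 0.07. At 0, *CD163* and *CD86* reached 0.98. The difference between the groups was not tested.

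The largest and smallest values came from a few dogs. At 0, dog 7 was the lowest of its group for 7 of the 9 members, all but *CSF1R* and *CD68*, and it was the highest for *CD68*. Its array at 0 was also the dimmest of that group. There 53.3% of probes gave a Cy5 signal well above background, against 61.2% to 87.5% on the other arrays at 0. The part of this in the values of dog 7 was not tested. Dog 4 was the highest at 6 months for 6 members, all but *CSF1R*, *MARCO* and *CD68*, and the lowest for *CD68*. In ctrl, dog 5 was the highest for *CD14*, *CD163*, *CSF1R* and *MARCO*. From 0 to 6 months, 8 of the 9 members were higher at 6 months in dog 4, with a median change of 0.96, and in dog 1, with a median of 0.18, as were 7 in dog 3, 6 in dog 7 and 5 in dog 2. In dog 6, with a median of -0.86, and in dog 5, with a median of -0.28, 7 were lower, all but *CSF1R* and *CD68*. The arrays of dogs 4 to 7 at 0 and at 6 months were on different slides and scanned on different days. Their changes cannot be told apart from slide or scan.

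**Figure D5:**
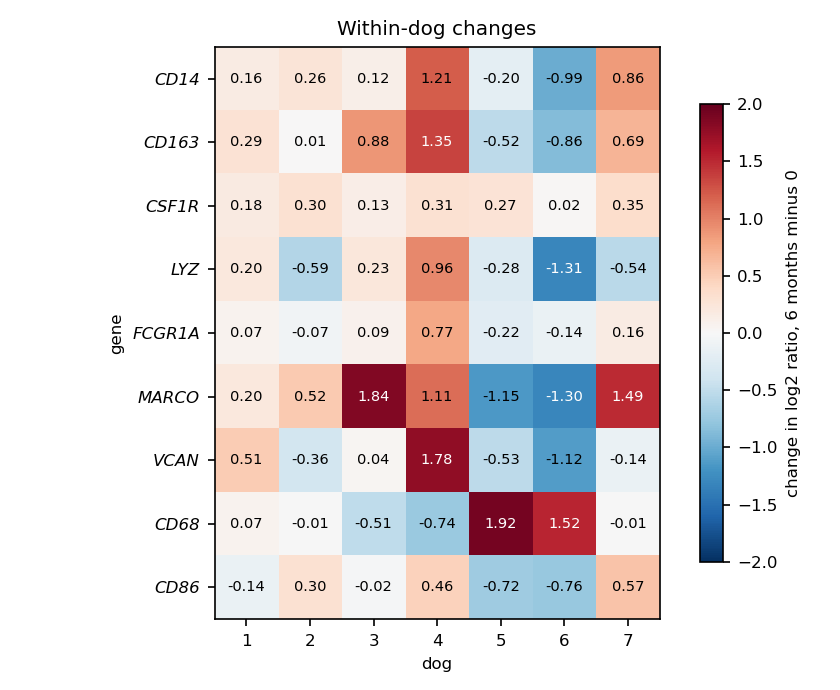
Change in log2 ratio from 0 to 6 months for the brightest probe of each member in each of the 7 dogs, with red for a higher and blue for a lower value at 6 months. Most members were higher in dogs 1, 3, 4 and 7 and lower in dogs 5 and 6, while *CSF1R* was higher in all 7 dogs.

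By rule, the named genes most like each member over the 22 arrays were looked up among 7658 genes. They were *NCSTN* (r = 0.94), *PLOD3* and *GRK6* for *CD14*, *BPI* (0.94), *SLC2A9* and *TNFSF13* for *CD163*, and *LRP1* (0.84), *DUSP6* and *PRKACA* for *CSF1R*. For *LYZ* they were *LMO4* (0.91), *PPP1R21* and *GNG10*, and for *VCAN* they were *ZDHHC7* (0.86), *LMO4* and *FBXL20*. *BPI* (0.95), *MS4A7* and *TFEC* came closest to *CD86*, and *WDR13* (0.79), *OSM* and *SH3BP2* to *MARCO*. *FCGR1A* was followed by *NAMPT* (0.91), *TLR4* (0.90) and *S100A9* (0.87). *BPI* was thus first for both *CD163* and *CD86*, and *LMO4* was on the lists of both *LYZ* and *VCAN*.

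Genes that work with the members were read as 65 partner genes, of which 55 had a probe and 53 were tested. They comprised ligands and growth factor receptors around *CSF1R*, transcription factors of the lineage, partners of *CD14* and *CD86*, scavenger and Fc receptors, genes of haemoglobin handling, of the lysosome and phagosome, and of trafficking, and other macrophage genes. In limma 0 of the 53 passed an adjusted p of 0.05 in any of the 3 comparisons. At an unadjusted p under 0.05, 2 were higher and 0 lower for 0 vs. ctrl, where 3.81% of all probes were higher and 7.93% lower. There were 2 higher and 2 lower for 6 months vs. ctrl (4.09% and 3.11% of all probes), and 0 higher and 1 lower for 6 months vs. 0 (3.81% and 2.15%). None of the 14 member probes was among the lower ones in any comparison. The 53 partner genes had a median difference of -0.03 for 0 vs. ctrl, 0.05 for 6 months vs. ctrl and 0.04 for 6 months vs. 0, beside -0.02, -0.04 and 0.01 over all probes.

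The partner gene with the smallest p was *MSR1*, the class A scavenger receptor 1, which only 12 of the 22 arrays measured well above background. Ctrl had a mean log2 ratio of 0.09 (SD 0.21, n = 8), the cAD patients one of 0.81 (SD 0.79, n = 7) at 0 and of 0.11 (SD 0.28, n = 7) at 6 months. The difference was 0.72 (SE 0.25, adjusted p = 0.219 in limma) for 0 vs. ctrl and -0.70 (SE 0.25, adjusted p = 0.579) for 6 months vs. 0. *NR4A1*, a nuclear receptor of patrolling monocytes, was above ctrl by 0.55 (SE 0.23) at both times, with adjusted p of 0.327 and 0.681. *ITGAX*, the integrin CD11c, differed by -0.48 (SE 0.24) for 0 vs. ctrl. For 6 months vs. ctrl, *AIF1*, an actin-binding protein of macrophages, differed by 0.46 (SE 0.19) and *CD80*, the second ligand of CD28, by -0.41 (SE 0.17), and for 6 months vs. 0 *STAB1*, a scavenger receptor, differed by 0.51 (SE 0.28) and *CD80* by -0.29 (SE 0.18). None of these passed the adjusted test.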

How the data were processed

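The authors deposited the scanner output of 22 Agilent 2-colour arrays, with raw and processed intensity values of each spot and the log10 ratio of Cy5 to Cy3, made by background subtraction and Lowess normalization in Feature Extraction (version 10.7.3.1 per the labels, 10.10.1.1 in the file headers), and a series matrix of log10 ratios. The series matrix equals the scanner files for the 14 arrays of cAD patients and correlates with them by r of 0.711 to 0.844 for the 8 ctrl arrays. Which ctrl values are final is not given in the sources used here, and the scanner files were used for all arrays. The deposited log10 ratios were converted to log2, 208 outlier spots and control spots were left out, and spots of a probe were averaged. Probes whose Cy5 signal passed the background flag on 7 or more arrays were fitted in limma (version 3.58.1, R 4.3.3), the 3 groups in a single fit without a block, with Benjamini-Hochberg adjustment. Exact permutation and sign-flip tests were 2-sided, and figures were drawn with Python 3.11.15. The number of arrays limits the precision. The brightest probe of a gene stood for it in figures, correlations and partner genes. All members were named, and by rule the 3 partner genes with the smallest p in each comparison and the 3 named genes most alike each member. An item among the latter is not reported here. The members and lists were chosen with earlier results of these data known. Gene names are those of the files, and names counted as known were symbols of RefSeq. The fit was tested on simulated data. The deviations from the group means of the 2 arrays of a dog correlated by r of -0.04 to 0.56. In 4 of 7 dogs the array at 0 correlated best with the same dog's later array, in dogs 3, 5 and 6 with that of another dog. The pairing comes from the source names and health conditions in the labels, which number the dogs 1 to 7 at both times, whereas the titles of all later arrays read patient 1, followed by a number from 1 to 7. The alternatives were normexp with an offset of 50, the series matrix, the Cy5 channel alone, the ratio of processed signals, 2 filters, slide and dog blocks, dogs 1 to 3 alone, the methods' test and each array left out. Added after seeing the data were the correlations within ctrl, within cAD patients and without *CD68*, the other scalings of *CD68*, and the sequence words.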

Additional observations from a re-analysis of the deposited data

Results flagged for a closer look

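In 5 of the 42 groups of 7 or 8 arrays that the 14 probes give, 1 array stood apart from its group by Dixon's criterion, where chance alone gives about 1 in 20. In control dog 5, *CD14* had a log2 ratio of 1.03, with the next ctrl value at 0.20, and *CSF1R* (brightest probe) one of 0.55, with the next at -0.06. In control dog 1 the second probe of *CD163* lay at -0.86, with the next at -0.19. *VCAN* (brightest probe) lay at 1.18 in control dog 2, with the next at 0.07. *CD68* lay at -1.03 in dog 4 at 6 months, with the next at 0.50, and without this array the difference for 6 months vs. ctrl was 1.04, not past an adjusted p of 0.05 in limma. The cause of these values was not tested.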

How the results depend on the processing

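No alternative called a member probe in any comparison, the dog as a block (0 of 14) and the Cy5 channel alone included, although the Cy5 channel called 45.1% and 41% of all probes for the comparisons of 0 and of 6 months with ctrl. That channel moved the median of all probes to -0.44 and -0.37, and it called 9 and 10 partner genes instead of 0. Several small differences changed sign. With normexp, *VCAN* was 0.0508 for 0 vs. ctrl, *CD14* 0.0471, *CD163* 0.11, *MARCO* 0.18 and *VCAN* 0.11 for 6 months vs. ctrl, and *CD86* 0.0414 for 6 months vs. 0. With the Cy5 channel alone, *CD14* (0.0327), *CSF1R* (0.11), *FCGR1A* (0.11) and *VCAN* (0.0204) turned for 0 vs. ctrl, *CD14* (0.27) and *FCGR1A* (0.17) for 6 months vs. ctrl, and *VCAN* (-0.0863) for 6 months vs. 0. *CD14* for 6 months vs. ctrl was 0.0305 in the series matrix and 0.0085 with the slide as a random block. Between 0 and 6 months, *CD86* was 0.0701 with the slide as a fixed block, and in dogs 1 to 3 alone *CD86* was 0.0467 and *CD68* -0.15. The cause was not tested.

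With the dog as a replicate block, *CSF1R* was 0.22 for 6 months vs. 0 with an adjusted p of 0.783 in limma, and the pairing changed no call. For the dog block and the fits with an array left out, the share called over all probes is not given here. Their counts are thus no result about the members. With each array left out in turn, 0 member probes and 0 partner genes were called. The differences that crossed 0 ran, for 0 vs. ctrl, from -0.16 to 0.0014 for *CSF1R*, from -0.10 to 0.12 for *LYZ*, from -0.25 to 0.12 for *VCAN* and from -0.30 to 0.0045 for *CD86*. For 6 months vs. ctrl they ran from -0.10 to 0.13 for *CD14*, from -0.12 to 0.0457 for *FCGR1A*, from -0.29 to 0.0414 for *MARCO* and from -0.30 to 0.14 for *VCAN*, and for 6 months vs. 0 from -0.0018 to 0.20 for *FCGR1A*, from -0.22 to 0.20 for *VCAN* and from -0.20 to 0.11 for *CD86*. The median r of the 36 pairs was 0.39 to 0.52 with an array left out, 0.23 in the ctrl arrays alone and 0.54 without *CD68*.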
